A study of Homo sapiens with 6 samples.

Results

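The genes described here are 10 genes of the Z-disc, of titin and nebulin, and of the muscle Kelch proteins: KLHL40, KLHL41, XIRP1, XIRP2, NEB, TTN, ACTN2, LDB3, MYOZ2 and TCAP. They were selected by gene symbol from the 35268 named genes of the count table, and each of the 10 had 1 row. The group was selected on measured values in part, since KLHL41 and XIRP1 had been seen to rise in the contrast of drug against vehicle. For that reason the drug-induced changes of the 10 genes are given below as a description, with intervals and without p-values. The samples were Rh30 cells, an established human cell line from fusion-positive rhabdomyosarcoma (FP-RMS) that carries the PAX3-FOXO1 fusion. One group of 3 libraries came from cells given 1 µM YK-4-279 dissolved in DMSO for 24 hours, and the other group of 3 libraries came from cells given the vehicle, DMSO, for the same time. YK-4-279, called YK below, is a small molecule used in cancer research against transcription factors of the ETS family. The labels do not say whether replicates were separate cultures, so the spread between replicates may be technical, and 1 cell line limits the comparison to that line.

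The Z-disc is the protein lattice that anchors the actin filaments of neighbouring sarcomeres, the contractile units of striated muscle. Alpha-actinin cross-links the actin filaments there, titin runs from the Z-disc to the middle of the sarcomere as a molecular spring, and nebulin runs along the actin filament. Kelch proteins of muscle are adaptors of the cullin-3 ubiquitin ligase, and KLHL40 and KLHL41 are known to bind nebulin and to keep it stable. Loss of NEB, KLHL40 or KLHL41 causes nemaline myopathy, and these genes come on as myoblasts differentiate, a step at which rhabdomyosarcoma cells are held back.

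The libraries held between 16724650 and 24677433 reads on named genes. DMSO replicate 1 was the shallowest and stood apart, its mean correlation with the rest, across genes, being 0.989, whereas no other library was under 0.992. It also had 6.05% of its reads on mitochondrial protein-coding genes, against 4.74% to 5.03% in the other 5 libraries. Results that depended on it are given with and without it. The muscle label fitted the data, with 8 of 10 skeletal muscle lineage markers at 10 or more normalized counts in every library and MYF5 under 10 in all of them. Of 6 heart muscle markers, MYH6, TNNI3 and MYL7 were under 10 normalized counts in every library and 2 were at 10 or more in every library, as were 3 of 3 smooth muscle and 3 of 4 fibroblast markers. The summed counts of 4 fibroblast markers were 2224 to 2486 in DMSO libraries and 2634 to 2768 in YK libraries. The 6 heart muscle markers summed to 907 to 1103 and 824 to 887. Neither sum overlapped between the groups, and the part of these markers in the results below was not tested.

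Nebulin was the most abundant of the 10 transcripts per length in cells given DMSO, and XIRP2 was barely detected. Levels are given first as normalized counts per kb of the canonical GENCODE transcript, a scale on which genes of different length can be compared. In DMSO libraries NEB had 187 ± 14.3 normalized counts per kb (SD, n = 3), KLHL41 had 92.9 ± 22, and ACTN2, the alpha-actinin of striated muscle, had 61.6 ± 6.13. These 3 genes did not overlap one another in any DMSO library.

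The next 4 genes lay close together. MYOZ2, which encodes calsarcin-1, a tether of calcineurin to alpha-actinin, had 22.7 ± 1.22 normalized counts per kb in DMSO libraries. TTN had 18.7 ± 1.30, TCAP, the cap of the Z-disc end of titin, had 18.6 ± 7.77, and XIRP1, an actin-binding Xin repeat protein of cell junctions in muscle, had 16.1 ± 0.720. The range of TCAP, from 10.5 to 26.0 per kb, covered all values of the other 3 genes, so that its place in the order is not settled. Nebulin and titin, the giant proteins, thus stood far apart per length, although TTN, with 109.224 kb of transcript, had 2044 ± 142 normalized counts in all.

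KLHL40 and LDB3 were low, at 9.15 ± 1.86 and 6.94 ± 0.215 normalized counts per kb in DMSO libraries. LDB3 encodes a PDZ-LIM protein that binds alpha-actinin. Another gene on the same strand overlaps 16.4% of the exonic bases of LDB3, so that reads there could be split or dropped in counting. XIRP2, the other Xin repeat gene, had 0.424 ± 0.0963 per kb. TTN, NEB, LDB3 and ACTN2 have many annotated transcripts (16, 21, 22 and 25), and a level per kb would shift if a shorter isoform carried the reads.

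**Figure D1:**
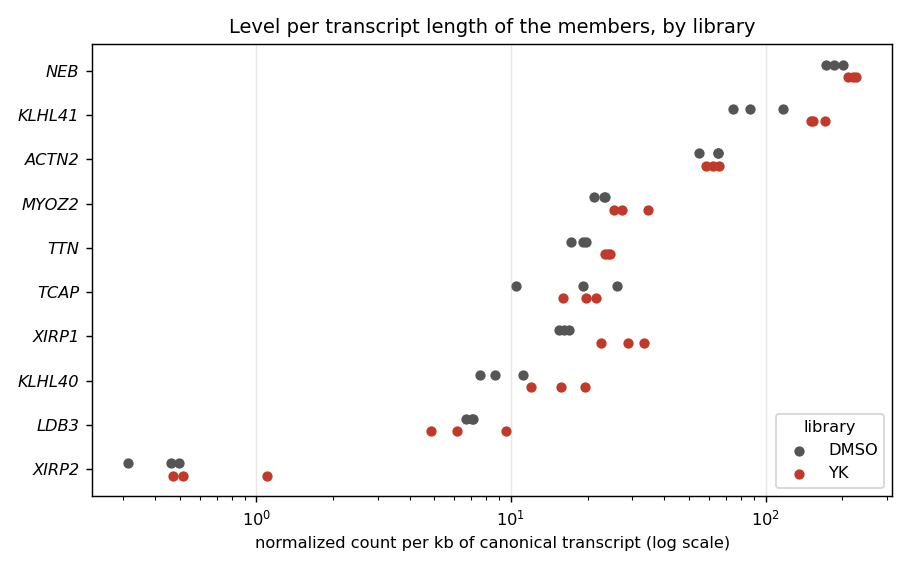
Levels of the 10 genes as normalized counts per kb of canonical transcript, on a log scale. Each point is 1 library (DMSO in grey, YK in red), and genes are ordered by their mean in DMSO libraries, from XIRP2 at 0.424 to NEB at 187.

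Of the 10 genes, 4 lie on chromosome 2, namely NEB, XIRP2, KLHL41 and TTN. KLHL41 (ENSG00000239474.7) is at chr2:169509702-169526258 on the plus strand of hg38, with 6 exons in its canonical transcript. A GENCODE readthrough gene that joins it to its upstream neighbour covers 35.8% of its exonic bases on the same strand, so that reads there could be split or dropped in counting. XIRP1 (ENSG00000168334.9) is at chr3:39183210-39192596 on the minus strand, with 2 exons and no exonic overlap with another gene. KLHL40 is also on chromosome 3, at chr3:42685537-42692544. TTN is at chr2:178525989-178830802 on the minus strand, with 363 exons in its canonical transcript, and antisense genes, TTN-AS1 among them, overlap 17.7% of its exonic bases. TTN had 146 to 209 times the normalized counts of TTN-AS1 in the 6 libraries.

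The stretches of DNA just before the transcription starts of these genes were searched for motifs, which the choice of genes did not use. RefSeq promoters (GRCh38.p14) were found for 9 of the 10 genes, with 11 starts, and TCAP was not in the table. Some RefSeq starts lie inside the span that GENCODE gives the gene, as for TTN, ACTN2, both starts of LDB3 and the start of XIRP2 that has the match described next. In the 250 bases before the start, a MEF2 site, the binding motif of the MEF2 factors of muscle, was searched on either strand. It was found for 6 of the 9 genes and before 6 of their 11 starts, against 2.80% of 35116 promoters. ACTN2, LDB3 and NEB had none. The 35116 promoters were not matched to these genes in base composition. The 6 genes were KLHL40, KLHL41, MYOZ2, TTN, XIRP1 and XIRP2, and XIRP2 had the match before 1 of its 2 starts only. The 30 bases around the match are shown for 4 of these genes, 5′ to 3′ on the strand of the gene, so that the matches can be compared. Capitals mark the match.
KLHL40 (chr3:42685497-42685526, plus strand): ccggccacctCTATATATAGcccctcgaag
KLHL41 (chr2:169509629-169509658, plus strand): gagttggtatCTATATTTAGctagtgggat
XIRP1 (chr3:39192687-39192716, minus strand): tccacaagacCTAAAAATAAccgaaccact
XIRP2 (chr2:167187289-167187318, plus strand): agctcagttcCTAAAAATAGgtgccaagtt

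The first base of the match lay 30, 63, 111 and 73 bases before the start in the order shown.

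The E-box is the motif of helix-loop-helix factors, of which MYOD1 and the other myogenic ones are a part. It was searched as CANNTG and as its form CAGCTG, which is a subset of it. Both read the same on either strand. CANNTG was present for 8 of the 9 genes and before 9 of their 11 starts, against 61.8% of all promoters, and is too common to set them apart. CAGCTG was present for 5 of the 9, namely ACTN2, KLHL40, KLHL41, MYOZ2 and XIRP1, and before 5 of the 11 starts, against 14% of all promoters. A CArG box, the motif of SRF, was found for LDB3 alone, before both of its starts, against 1.16% of all promoters. The letters TATAAA, read on the strand of the gene only, were found before none of the 11 starts, against 6.80% of all promoters. The core of ETS sites, GGAA on either strand, was found for 8 of the 9 genes and before 10 of the 11 starts. It was in 92.7% of all promoters, and is too common to set them apart as well. A match is a run of letters and not a site shown to be bound.

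The 250 bases before the starts of KLHL41, XIRP1 and ACTN2 are shown because they span the base composition of the 11 stretches, that of KLHL41 having the fewest and that of ACTN2 the most G and C. They were chosen after their values were seen. Capitals mark E-boxes and MEF2 sites.
KLHL41 (chr2:169509452-169509701, plus strand): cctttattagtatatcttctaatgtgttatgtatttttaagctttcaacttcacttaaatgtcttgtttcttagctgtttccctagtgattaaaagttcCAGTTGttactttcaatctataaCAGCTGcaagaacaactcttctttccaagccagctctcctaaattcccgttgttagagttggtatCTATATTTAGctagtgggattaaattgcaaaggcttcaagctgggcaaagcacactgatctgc
XIRP1 (chr3:39192596-39192845, minus strand): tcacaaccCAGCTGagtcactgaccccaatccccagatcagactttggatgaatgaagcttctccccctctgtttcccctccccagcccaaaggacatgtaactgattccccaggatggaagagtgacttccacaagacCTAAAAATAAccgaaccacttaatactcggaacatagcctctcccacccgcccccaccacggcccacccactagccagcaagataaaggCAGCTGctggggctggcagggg
ACTN2 (chr1:236686249-236686498, plus strand): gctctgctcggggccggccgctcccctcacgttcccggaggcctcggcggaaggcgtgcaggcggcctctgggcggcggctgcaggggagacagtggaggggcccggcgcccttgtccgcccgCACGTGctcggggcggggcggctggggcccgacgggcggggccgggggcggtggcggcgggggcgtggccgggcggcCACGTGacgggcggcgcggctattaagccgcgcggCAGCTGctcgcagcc

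The ACTN2 stretch was 81.6% G and C with 38 CpG, against 36.0% with 1 CpG for KLHL41, 55.2% with 4 CpG for XIRP1 and a median of 58.0% over all promoters. It held 3 E-boxes and no MEF2 site, and KLHL41 and XIRP1 each held 2 E-boxes and 1 MEF2 site. No order of response is read from these matches: NEB, described below as higher in every YK library, had no MEF2 site, and XIRP2, whose groups overlapped, had one.

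**Figure D2:**
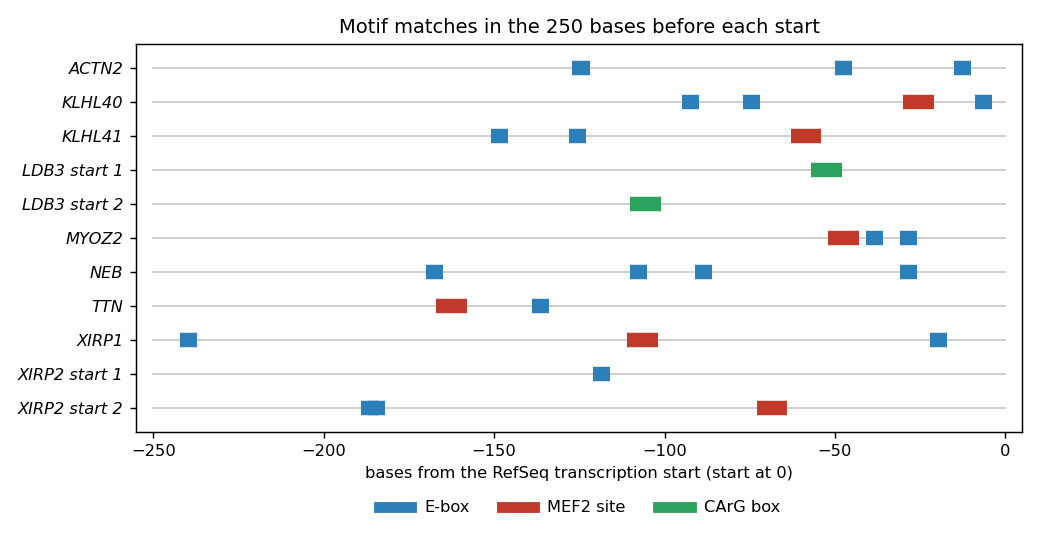
Matches to 3 motifs in the 250 bases before each RefSeq transcription start, with the start at 0 on the horizontal axis. Red bars are MEF2 sites (6 of the 11 starts), blue bars E-boxes and green bars CArG boxes, and genes with 2 starts have 2 rows.

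After YK treatment 6 of the 10 genes were higher without overlap between the groups, while ACTN2, LDB3, TCAP and XIRP2 overlapped. Every YK library was above every DMSO library for 6 of the 10 genes, namely KLHL40, KLHL41, XIRP1, NEB, TTN and MYOZ2. Among the 13930 genes tested, those with a mean of at least 10 normalized counts, 10.9% were higher in this way and 15.1% were lower, and none of the 10 genes was lower. Past an adjusted p-value of 0.05 in limma, the threshold for a gene to be called, were KLHL41, XIRP1 and TTN, each higher, which is 3 of the 9 genes that passed the filter on low counts. The same threshold was passed by 3.41% of all genes tested, 1.26% higher and 2.15% lower. Since the contrast was used in choosing the genes, nothing is read from this count. The median log2 fold change of the 9 genes, those that chose the group included, was 0.34, beside -0.01 for all genes tested. It was 0.23 without YK replicate 2 and 0.13 with trends on GC content and transcript length removed. Log2 fold changes are differences of log2(normalized count + 1), which understate the change of low genes. In bulk RNA more cells that express a gene and more RNA per cell cannot be told apart.

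**Figure D3:**
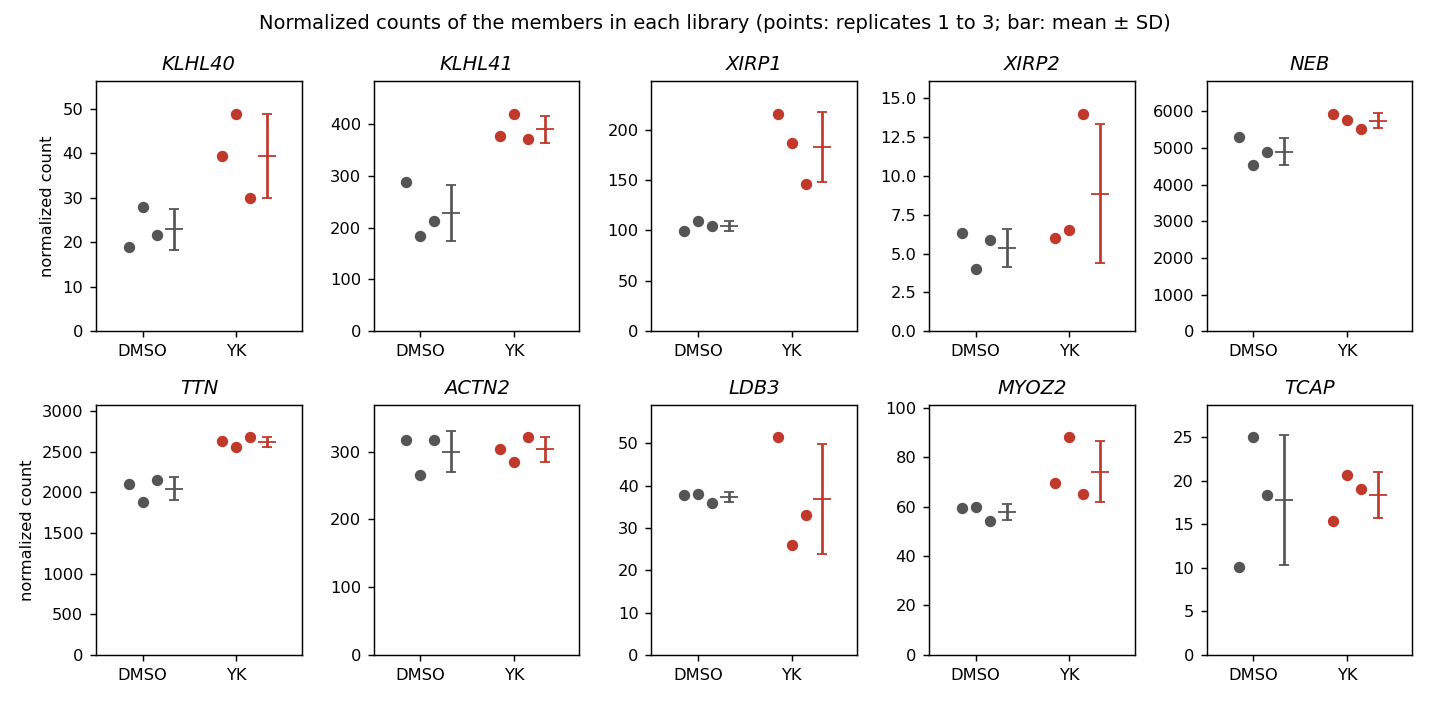
Normalized counts of each gene in the 3 DMSO and 3 YK libraries, with vertical axes that start at 0 and differ between genes. Points are replicates 1 to 3 from left to right, and the bar beside them is the mean with the SD. The groups do not overlap for KLHL40, KLHL41, XIRP1, NEB, TTN and MYOZ2.

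Of the Kelch genes, KLHL41 had 289, 184 and 213 normalized counts in DMSO replicates 1, 2 and 3 and 378, 421 and 372 in YK replicates 1, 2 and 3. The highest DMSO library was the one that stood apart, and it was still below every YK library. The log2 fold change was 0.79 (95% interval 0.49 to 1.09), and without DMSO replicate 1 it was 0.97.

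KLHL40 had 18.9, 28 and 21.7 normalized counts with DMSO and 39.4, 48.9 and 30.0 with YK, which came from 15 to 46 reads per library. The lowest YK library was just above the highest DMSO library. Its log2 fold change of 0.75 was close to that of KLHL41, but with few reads the interval was wide (0.19 to 1.31), and it was not past the threshold in limma. Counting error alone gave a standard error of 0.22 on the log2 scale. KLHL41 exceeded KLHL40 by 10.5 ± 4.39 times in DMSO libraries and by 10.2 ± 1.97 times in YK libraries (SD, n = 3 each), so that no change in the ratio of the paralogs was detectable.

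Of the Xin repeat genes, XIRP1 had 99.6, 109 and 104 normalized counts with DMSO and 216, 187 and 146 with YK. The DMSO libraries lay close to one another, whereas the YK libraries were spread, the lowest being YK replicate 3. The log2 fold change was 0.79 (95% interval 0.47 to 1.11), and it was 0.94 without YK replicate 3.

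XIRP2 had 6.30, 4.0 and 5.84 normalized counts with DMSO and 6.0, 6.52 and 14 with YK. It was below the filter and was not tested. Its 16 reads over the DMSO libraries and 27 over the YK libraries were too few to show a change of the size seen in XIRP1, and the groups overlapped.

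Of the giant filament genes, TTN had 2103, 1882 and 2147 normalized counts with DMSO and 2631, 2556 and 2674 with YK. The groups were well apart, the gap between them being larger than the range within each. The log2 fold change was 0.36 (95% interval 0.22 to 0.50).

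NEB had 5291, 4542 and 4878 normalized counts with DMSO and 5937, 5778 and 5524 with YK. The groups did not overlap, but the highest DMSO library and the lowest YK library were near each other. The log2 fold change was 0.23 (95% interval 0.09 to 0.37), which did not pass the threshold in limma with all libraries and did so without DMSO replicate 1, where it was 0.29. The ratio of TTN to NEB was 0.398, 0.414 and 0.440 with DMSO and 0.443, 0.442 and 0.484 with YK, slightly higher in each YK library than in any DMSO library.

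TTN and NEB have the longest transcripts of the group, and DMSO replicate 1 had higher levels of long transcripts as a class. Among 587 tested genes with canonical transcripts of at least 10 kb, the median deviation from the gene's mean was 0.07 on the log2 scale in DMSO replicate 1 and between -0.05 and 0.01 in the other 5 libraries. The median log2 fold change of this class was 0.00, with 50.1% of the genes higher, against 0.36 and 0.23 for TTN and NEB. Without DMSO replicate 1 the class median was 0.03, against 0.38 and 0.29 for TTN and NEB. With trends on GC content and transcript length taken out of each library, TTN was at 0.07 and lost its call, and NEB was at 0.13 and gained one. TTN is the longest of the genes tested, the next being 34.626 kb, so that no other gene tested was near its length. How far TTN itself set the trend at that length was not tested. With lengths over 10 kb set to 10 kb, an alternative chosen after seeing the data, TTN was at 0.35 and NEB at 0.21, and both were past the threshold.

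Of the Z-disc genes proper, MYOZ2 had 59.3, 60.0 and 54.3 normalized counts with DMSO and 69.4, 88.0 and 65.0 with YK. All YK libraries were higher, with YK replicate 2 above the rest. The log2 fold change was 0.34 with an interval from -0.03 to 0.72, and it was not past the threshold.

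ACTN2 had 318, 266 and 317 normalized counts with DMSO and 304, 285 and 321 with YK. The groups overlapped fully, and the log2 fold change was 0.02. Its 95% interval, from -0.20 to 0.24, lies below the changes of 0.79 seen for KLHL41 and XIRP1 but holds a change as small as the 0.23 of NEB.

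LDB3 had 37.8, 38.0 and 35.9 normalized counts with DMSO and 51.4, 26.1 and 33 with YK. YK replicate 1 was the highest library and YK replicate 2 the lowest, and the log2 fold change of -0.07 had an interval from -0.62 to 0.48. TCAP had 10.1, 25 and 18.4 normalized counts with DMSO and 15.4, 20.6 and 19.0 with YK, a log2 fold change of 0.12 with an interval from -0.63 to 0.87. The direction of both genes turned when single libraries were left out, LDB3 to 0.14 without YK replicate 2 and TCAP to -0.22 without DMSO replicate 1. Changes as large as those of KLHL41 lay within the interval of TCAP.

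**Figure D4:**
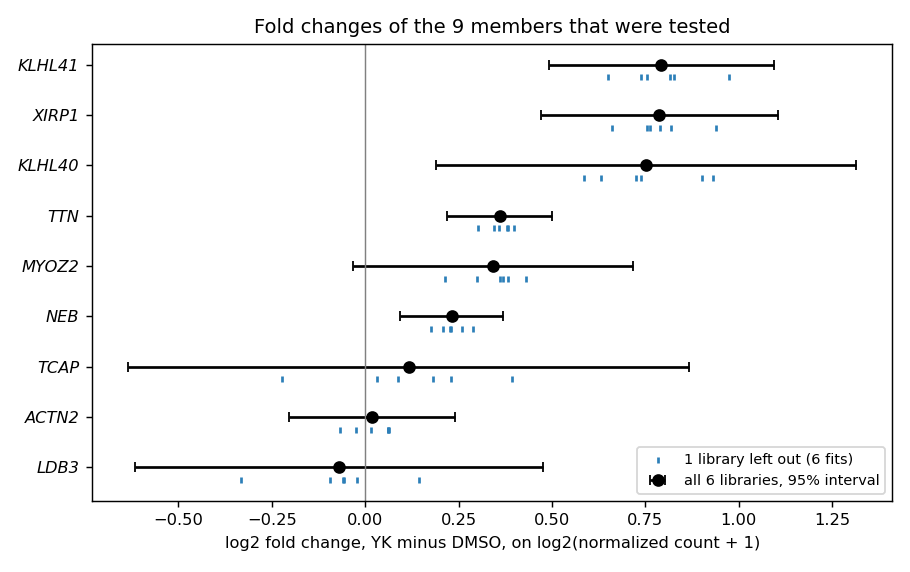
Log2 fold changes of the 9 tested genes, YK minus DMSO, on log2(normalized count + 1). Black points with bars are the estimates from all 6 libraries with 95% intervals, and blue ticks are the 6 fits that each left out 1 library. The intervals of KLHL41, XIRP1, KLHL40, TTN and NEB lie above 0.

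The calls of KLHL41 and TTN were lost when any of the 3 YK libraries was left out, and that of XIRP1 without YK replicate 1 or 2. Fewer of all genes passed in these fits too, and the log2 fold change of KLHL41 was 0.83 without YK replicate 3. With eBayes without trend, or without YK replicate 1 or 2, none of the 3 was past the threshold in limma, and without YK replicate 3 only XIRP1 was, in fits where 33, 19, 23 and 46 of all genes tested passed. Over the 6 fits that each left out 1 library, DMSO or YK, the log2 fold changes were 0.65 to 0.97 for KLHL41, 0.66 to 0.94 for XIRP1 and 0.30 to 0.40 for TTN.

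Other genes of the same structures were counted from lists written by function, to place the 10 genes among their partners. The lists were chosen with earlier results of these data known, so that they are not an independent set. Of 26 other genes that encode Z-disc or titin-binding proteins, 19 were tested, and 17 were higher and 2 lower after YK, their log2 fold changes having a median of 0.14. Of all genes tested, 6684 were higher and 7246 lower. Past the threshold in limma were 3 higher and 1 lower, beside the 1.26% and 2.15% of all genes tested. SYNPO2L, a Z-disc protein, rose by 0.76 on the log2 scale (standard error 0.07, limma adjusted p = 0.000181), and its levels were 648 ± 28.4 normalized counts with DMSO and 1095 ± 26.0 with YK (SD, n = 3 each). ANKRD1, a stress-responsive ankyrin repeat protein that binds titin, rose by 0.68 (standard error 0.12, limma adjusted p = 0.00906). FHL1, a LIM domain protein of the sarcomere, fell by 0.34 on the log2 scale (standard error 0.06, limma adjusted p = 0.0136). The remaining call was MYPN, which encodes myopalladin, a partner of nebulin and alpha-actinin, named after its values were seen, and it had 6.0 to 11.7 normalized counts with DMSO and 21.7 to 24.0 with YK (limma adjusted p = 0.0466). FLNC, which encodes filamin C and had the highest mean of the list, differed by 0.13 ± 0.07 on the log2 scale (SE; limma adjusted p = 0.320). Without DMSO replicate 1, 6 genes of this list were past the threshold higher and 1 lower, where 4.62% of all genes tested were higher and 8.46% lower. These shares are to be read beside each count without DMSO replicate 1 below.

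The close paralogs of the 10 genes, namely the other alpha-actinins, PDZ-LIM, myozenin and nebulin family genes, gave no call. Of 14 genes 10 were tested, 7 were higher and 3 lower, and the median log2 fold change was 0.03, which turned to -0.04 without DMSO replicate 1. At an unadjusted p under 0.05 limma gave 3, where 18.7% of all genes tested were under it, a share to be read beside each such count below. The number called by edgeR and by DESeq2 was 0. ACTN4, the non-muscle alpha-actinin with the highest mean of these, differed by 0.01 ± 0.07 on the log2 scale (SE; limma adjusted p = 0.967). PDLIM3 alone was called without DMSO replicate 1. NEBL and NRAP, the relatives of nebulin in heart muscle and developing myofibrils, were below the filter, at no more than 12.0 and 2.57 normalized counts in any library.

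At the middle of the sarcomere, 5 of 6 M-band genes were tested, and 3 were higher and 2 lower. The median log2 fold change was 0.25, and it was 0.11 without DMSO replicate 1. None was called by limma, edgeR or DESeq2, with 1 at an unadjusted p under 0.05 in limma. Without DMSO replicate 1, 2 genes were called, OBSL1 and SPEG, both lower, in a fit that called 8.46% of all genes tested lower. OBSL1, the member with the highest mean, which links titin to other M-band proteins, had 3049 ± 381 normalized counts with DMSO and 2936 ± 99.3 with YK (SD, n = 3 each).

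Genes that set the ends and the length of actin filaments gave no call. Of 15 genes 12 were tested, 2 were higher and 10 lower, and the median of their log2 fold changes was -0.09. None was called by limma, edgeR or DESeq2, with 4 at an unadjusted p under 0.05 in limma. CFL1, cofilin, the member with the highest mean, differed by -0.03 ± 0.09 on the log2 scale (SE; limma adjusted p = 0.897). Without DMSO replicate 1, CFL1 and CAPZA1 were called, both lower, where 8.46% of all genes tested were called lower.

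Among 47 symbols listed for other Kelch-like genes, 46 had a row and 34 were tested, 19 higher and 15 lower. Their log2 fold changes had a median of 0.02, and 1 gene was called in each direction. Without DMSO replicate 1, KLHL15, KLHL24 and KLHL28 were called higher and KLHL5 and KLHL23 lower, beside 4.62% and 8.46% of all genes tested. KLHL5, KLHL15 and KLHL28 are named after their values were seen. KLHL24, an adaptor for the turnover of intermediate filament proteins, rose by 0.53 (standard error 0.11, limma adjusted p = 0.0222). KLHL23 fell by 0.39 on the log2 scale (standard error 0.07, limma adjusted p = 0.0117). KLHL21, an adaptor that acts in mitosis and the member with the highest mean, differed by 0.10 ± 0.06 on the log2 scale (SE; limma adjusted p = 0.394). Of the cullin-3 ligase core, 6 genes were tested, 1 higher and 5 lower, with none called by limma, edgeR or DESeq2 and 2 at an unadjusted p under 0.05 in limma. RBX1, the RING subunit, was called lower without DMSO replicate 1. CAND1, the exchange factor of cullins and the member with the highest mean, differed by -0.18 ± 0.07 on the log2 scale (SE; limma adjusted p = 0.155).

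Of 18 regulators of muscle genes, 17 had a row and 13 were tested, 9 higher and 4 lower, and the median of their log2 fold changes was 0.06. None was called by limma or edgeR, 1 was called by DESeq2, and 4 had an unadjusted p under 0.05 in limma. MYOD1, the member with the highest mean, had 37118 ± 2368 normalized counts with DMSO and 36868 ± 1156 with YK (SD, n = 3 each; limma adjusted p = 0.963). The MEF2 genes are named because their motif was searched above. MEF2D had 960 to 1052 normalized counts with DMSO and 1151 to 1225 with YK (limma adjusted p = 0.0805). Without DMSO replicate 1 it was called higher, as were SRF and SIX4, in a fit that called 4.62% of all genes tested higher. MEF2A and MEF2C overlapped between the groups, at 1158 to 1355 against 1148 to 1174 and 2198 to 2718 against 2232 to 2372 normalized counts.

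**Figure D5:**
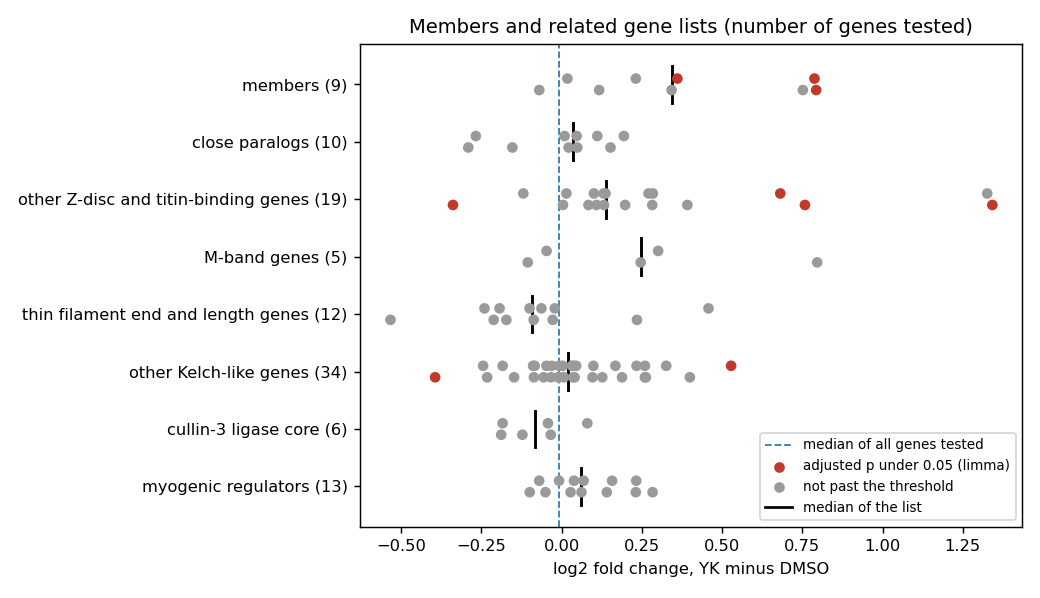
Log2 fold changes, YK minus DMSO, of the 9 tested members and of the tested genes of 7 lists by function, with the number of genes in brackets. Red points passed an adjusted p of 0.05 in limma and grey points did not. Black bars are list medians, from -0.09 for the thin filament end and length genes to 0.34 for the members. The median of the members includes KLHL41 and XIRP1, whose rise in this contrast chose the group, so that nothing is read from its place. The dashed line is the median of all genes tested, -0.01.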

How the data were processed

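mRNA of 6 Rh30 samples was sequenced, 3 per group, grouped by the treatment in the labels. The table deposited by the authors holds a normalized signal for each gene, made by BBDuk trimming, alignment to hg38 and counting in STAR 2.7.9a, and scaling of each library by its DESeq2 1.44.0 size factor. The annotation and strand setting are not given in the sources used here. Of 35269 rows, 1 had no gene name (at most 6 reads per library) and was left out.

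Every value was a whole multiple of its library's smallest value (100% of values, tolerance 0.01), which gave whole reads. limma 3.58.1 (R 4.3.3; eBayes with trend, two-sided, Benjamini-Hochberg) was fitted to log2(normalized count + 1) for 13930 genes with a mean of at least 10. Alternatives were pseudocounts of 10 and 0.5, no filter or a mean of at least 100, TMM scaling, quantile normalization, a replicate block, eBayes without trend, each library left out, edgeR 4.0.16 and DESeq2 1.42.0 on whole reads, and removal of GC and length trends (mgcv 1.9.3; 98.4% of genes had both). The code was tested on simulated data.

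Members and lists were chosen with earlier results of these data known. Beside the members, each list's gene with the highest mean was named, and up to 3 called genes of largest change whose groups did not overlap and whose mean was 100 or more. Intervals and read numbers cover counting and replicate error only. Not all marker lists are reported here.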

Additional observations from a re-analysis of the deposited data

How the results depend on the processing

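Low depth limits XIRP2, TCAP, KLHL40 and LDB3, which had 4 to 60 reads per library. The number of all genes called, 475, was 33 with eBayes without trend, 277 after quantile normalization, 1963 with GC content and length trends removed (1974 with lengths capped, chosen after seeing the data) and 19 to 1823 over the fits that left out 1 library. The share of higher calls, 37.1%, was 25.3% with trends removed, 47.7% after quantile normalization and 90.9% for eBayes without trend. Without YK replicate 1, 2 or 3 it was 78.9%, 69.6% and 60.9%, and it was 35.3% to 41.3% without a DMSO replicate. Of the 10 genes, 3 were called, 0 with eBayes without trend and 0 to 4 with 1 library left out. NEB was added, giving 4, with TMM, quantile scaling, edgeR, DESeq2 and capped lengths, and in the fit with full lengths it took the place of TTN. KLHL40 and MYOZ2 were called in none of their alternatives. The cause of these shifts was not tested.

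The same-numbered libraries did not deviate together (correlations of -0.098, -0.027 and -0.027), and with a replicate block 180 genes and the same 3 of the 10 were called.

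The called numbers went from 0 to 1 for close paralogs, 1 to 7 for other Z-disc and titin-binding genes, 0 to 2 for M-band genes, 0 to 2 for thin filament genes, 0 to 5 for other Kelch-like genes, 0 to 1 for the cullin-3 core and 0 to 3 for regulators over the fits that left out 1 library. With trends removed they were 2, 5, 2, 3, 7, 2 and 3, and with capped lengths 2, 6, 2, 3, 7, 2 and 3. With eBayes without trend the Z-disc list had 2 and the Kelch-like list 0, and DESeq2 called 1 regulator.

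The direction turned for ACTN2 without DMSO replicate 2 or YK replicate 3 (-0.067 and -0.024; 6 fits from -0.067 to 0.063), for LDB3 without YK replicate 2, with edgeR and with DESeq2 (0.14, 0.030 and 0.016; -0.33 to 0.14), and for TCAP with quantile normalization, without DMSO replicate 1 and with trends removed with full or capped lengths (-0.073, -0.22, -0.0048 and -0.0028; -0.22 to 0.39).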
